A study of Mus musculus with 14 samples.

Results

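The 10 genes described here serve fat cells in taking up, storing and releasing lipid: Fabp4, Lpl, Pparg, Adipoq, Plin1, Plin2, Cebpa, Cd36, Lipe and Pnpla2. They were chosen by name, and all 10 were found among the 48795 genes of the count table. RNA had been sequenced from 14 libraries of mouse fibroblasts, which had left explants of lung or of back skin, grown on plastic and been collected, unstimulated, on day 14. The animals were male C57BL/6J mice and Rel -/- mice of 8 to 10 weeks, and c-Rel, the product of Rel, belongs to the NF-kappaB transcription factors. Wild-type lung had 5 libraries, numbered 1, 23, 3, 4 and 5, and Rel -/- lung (labelled Rel-null below) had 4, numbered 7, 8, 9 and 10. Wild-type skin had 2 libraries, 11 and 22, and the group labelled Rel-null skin had 3, numbered 18, 19 and 20. The labels do not say which part of Rel is deleted, nor whether each library had an animal of its own; a p-value therefore measures only the spread among these libraries, which may be technical. The labels mention no cell sorting, and the cultures can hold other cells of the explant.

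Lipid storage begins outside the cell, where lipoprotein lipase (Lpl) frees fatty acids from circulating triglyceride. The scavenger receptor Cd36 helps take them up and the binding protein Fabp4 carries them inside the cell. The triglyceride made from them lies in droplets coated by perilipins, of which Plin1 is typical of fat cells and Plin2 occurs in most cells that hold droplets. Adipose triglyceride lipase (Pnpla2) and hormone-sensitive lipase (Lipe) break the store down again. The transcription factors Pparg and Cebpa drive fat cell differentiation, and Adipoq encodes the hormone adiponectin, which fat cells secrete. Fabp4, Cd36 and Pparg are also genes of macrophages, Lpl and Plin2 are read in many cell types, and the dermis lies over a layer of fat.

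Some libraries stood apart before any lipid gene was considered. Depth was between 12780350 and 30987933 counts in 13 libraries and 2663437 counts in wild-type skin 22. Levels are given as CPM, counts scaled to a common library total. Of the genes with a mean of at least 5 CPM in the remaining libraries of a tissue, 11.5% had no count in Rel-null lung 7 and 8.22% had none in wild-type skin 11. The share was 5.78% for wild-type lung 4, 3.37% for the library labelled Rel-null skin 18, and at most 0.728% for the others. Xist, an RNA made from the inactive X chromosome, reached 64.5 CPM (wild-type lung 1) and 732 CPM (wild-type skin 22), although the animals are described as male. Rel itself was at 1 count in Rel-null lung 7 and in the library labelled Rel-null skin 18. It was at 9.42 and 9.47 CPM in the libraries labelled Rel-null skin 19 and 20, near the 11.5 and 10.9 CPM of wild-type skin 11 and 22. In lung, Rel ranged from 1.10 to 17.3 CPM in wild-type and from 0.0651 to 4.06 CPM in Rel-null libraries, so those ranges overlap and the genotype labels are not borne out by Rel in every library. Rel-null lung 10 has a treatment label that says skin, but its title and source say lung, where it was kept. The fibroblast list (9 genes, the highest on average over the 14 libraries being Col3a1, Col1a1 and Col1a2) had a count for each gene in every library, with a summed level of 11581 to 130869 CPM.

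Adipoq and Plin1 were read almost wholly in 1 library, whereas Plin2 was read in all 14. Their promoters are shown because this is the sharpest contrast among the 10 genes. Sequences are from RefSeq on build GRCm38.p6, 5′ to 3′ on the strand of the gene, 250 bases before to 50 bases after the start site. Of the 10 genes, 8 have an entry, with 11 windows among them; Fabp4 and Lpl have none. Capitals mark matches to AGGTCA (a nuclear receptor motif) or TTGCNNAA (a C/EBP core), each searched on both strands, or TATAAA (the TATA box), searched on the given strand; of 32851 mouse promoter windows of the same length, 16.3%, 10.8% and 8.32% hold them. The windows are chr16:23146286-23146585 on the plus strand for Adipoq, chr7:79732727-79733026 on the minus strand for Plin1 and chr4:86670010-86670309 on the minus strand for Plin2.
Adipoq: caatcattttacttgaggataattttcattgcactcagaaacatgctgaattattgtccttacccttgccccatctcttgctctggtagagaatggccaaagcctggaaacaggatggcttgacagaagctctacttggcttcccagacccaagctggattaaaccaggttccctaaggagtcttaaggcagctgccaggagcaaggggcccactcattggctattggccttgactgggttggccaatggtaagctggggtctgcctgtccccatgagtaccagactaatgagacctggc
Plin1: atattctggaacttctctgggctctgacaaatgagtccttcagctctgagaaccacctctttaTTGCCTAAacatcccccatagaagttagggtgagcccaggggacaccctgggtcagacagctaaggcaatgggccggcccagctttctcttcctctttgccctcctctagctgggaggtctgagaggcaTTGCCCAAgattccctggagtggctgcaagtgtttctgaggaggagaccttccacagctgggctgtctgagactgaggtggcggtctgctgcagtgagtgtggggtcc
Plin2: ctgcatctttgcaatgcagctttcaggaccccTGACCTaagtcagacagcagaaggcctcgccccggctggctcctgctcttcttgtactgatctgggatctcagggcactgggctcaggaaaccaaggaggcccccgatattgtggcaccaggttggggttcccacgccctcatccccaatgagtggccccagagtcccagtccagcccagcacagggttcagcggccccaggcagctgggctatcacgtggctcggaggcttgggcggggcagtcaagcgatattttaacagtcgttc
The Adipoq window held none of these letters, the Plin1 window held the C/EBP core at 2 places that begin 187 and 58 bases before the start, and the Plin2 window held 1 nuclear receptor motif, on the reverse strand. A match is a description of the sequence, not a measured binding site.

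Adipoq (GRCm38 chromosome 16, 23146536-23158028, plus strand) was read at 37.5 CPM in wild-type skin 11, from 871 counts (exact 95% Poisson interval 35.0 to 40.1 CPM). It had 0 counts in wild-type skin 22, in all 9 lung libraries and in the libraries labelled Rel-null skin 18 and 19, and 1 count in Rel-null skin 20 (0.0782 CPM). The adiponectin message was thus at least 33.3-fold higher in wild-type skin 11 than in wild-type skin 22, against a floor of 3 counts in that shallow library (1.13 CPM). Against 3 counts over the 9 pooled lung libraries (0.0149 CPM), it was at least 2521-fold higher.

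Plin1 (chromosome 7, 79720218-79732903, minus strand), the droplet coat protein of fat cells, followed the same pattern. It was read at 131 CPM in wild-type skin 11, from 3053 counts (127 to 136 CPM), and had 1 count in wild-type skin 22 (0.375 CPM, 0.00951 to 2.09) and 1 in the library labelled Rel-null skin 19 (0.0637 CPM). All other libraries were at 0, which made wild-type skin 11 at least 8836-fold higher than the 9 pooled lung libraries. Neither Adipoq nor Plin1 passed the low-count filter, so 8 of the 10 genes were tested across groups. Their values describe 1 library against the others and carry no replicate check.

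Wild-type skin 11 was also the highest of the 14 libraries for Fabp4, Lpl, Pparg, Cebpa, Lipe and Pnpla2, all of which were tested. With Adipoq and Plin1, which were not tested, 8 of the 10 genes peaked there. Of all 16408 genes tested, 9.81% did, a share that leaves out Adipoq and Plin1. Cd36 and Plin2 were the exceptions, with their highest values in wild-type lung 23 (673 CPM) and in the library labelled Rel-null skin 18 (733 CPM). The lead of wild-type skin 11 over the next library was 9.03-fold for Fabp4 and 2.12-fold for Lipe, but 1.37-fold for Cebpa, 1.08-fold for Pparg, 1.08-fold for Pnpla2 and 1.03-fold for Lpl. The next library for Fabp4, Pparg and Pnpla2 was wild-type lung 4, another library with many genes at 0.

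**Figure D1:**
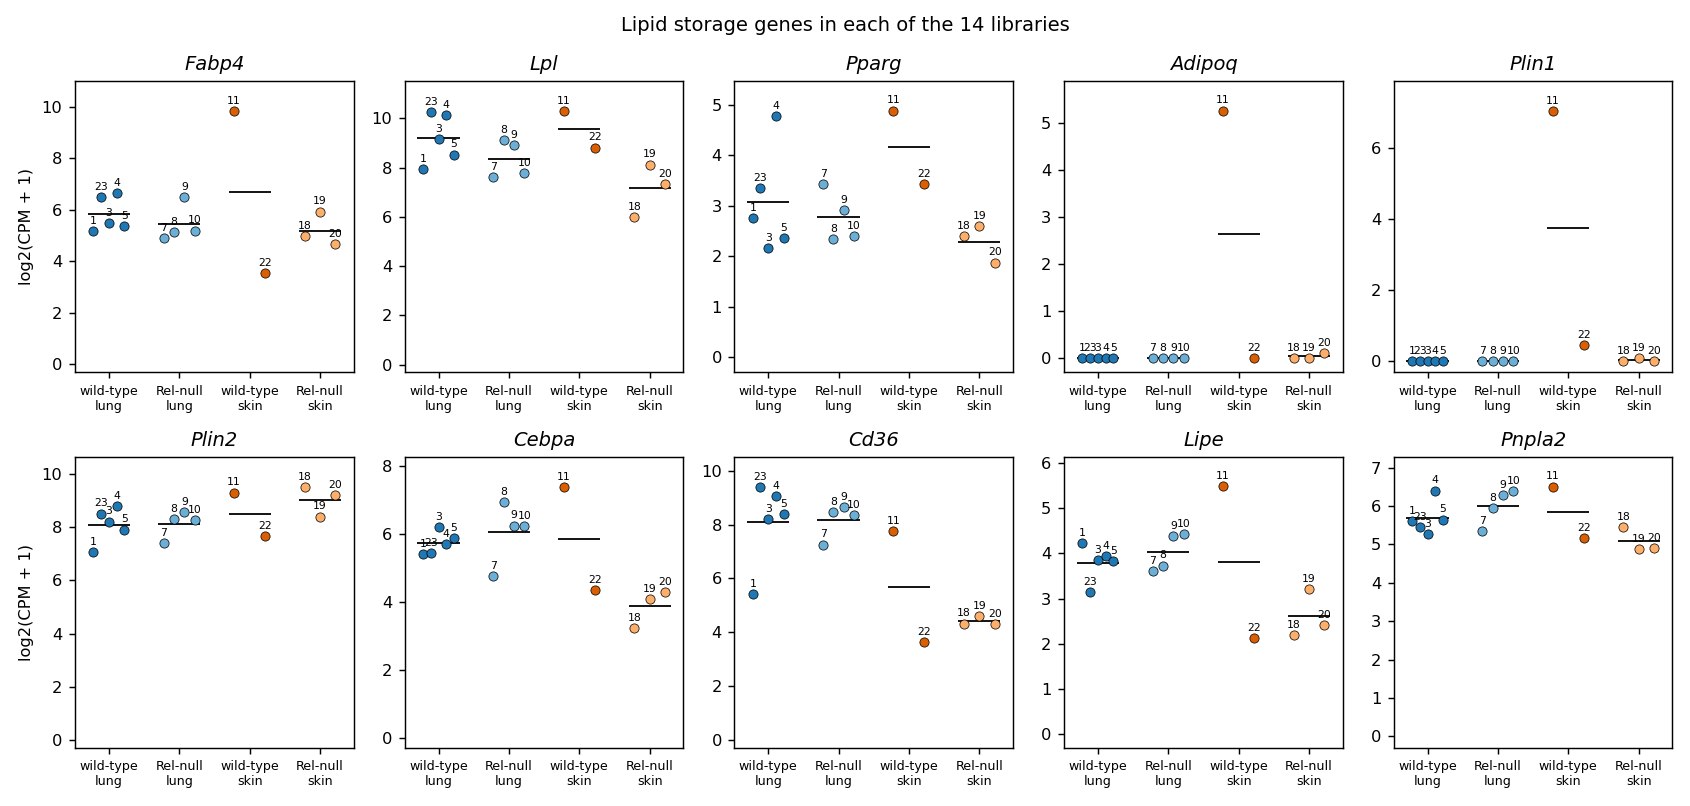
Level of each of the 10 genes as log2(CPM + 1) (vertical axis) in each library, by group (horizontal axis); points are libraries with their numbers and lines are group means of the log2 values. Adipoq and Plin1 lie near 0 in every library except wild-type skin 11, and the wild-type skin libraries lie farther apart for Fabp4, Cd36, Lipe and Cebpa than for Lpl, Pparg, Plin2 and Pnpla2.

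Between both wild-type skin libraries the genes differed by unequal amounts. Fabp4 was 85.5-fold higher in wild-type skin 11 than in wild-type skin 22 (899 against 10.5 CPM), Cd36 19.0-fold (214 against 11.3 CPM), Lipe 12.9-fold (43.7 against 3.38 CPM, the latter from 9 counts) and Cebpa 8.63-fold (165 against 19.1 CPM). Plin2, Pparg, Lpl and Pnpla2 differed by less, 3.10-fold, 2.94-fold, 2.77-fold and 2.57-fold. These ratios set 1 library against another and have no replicate check.

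Other fat cell genes split in wild-type skin 11. Of 14 adipocyte hormone and droplet genes, 4 were highest there: Plin4, a perilipin (143 CPM), Cfd, the secreted protease adipsin (19.2 CPM, at 0 in the other 13 libraries), Acvr1c, an activin-type receptor (8.44 CPM), and Adig, adipogenin (5.34 CPM). The hormone genes Lep and Retn and the droplet genes Cidec, Cidea and Plin5, like the glycerol channel gene Aqp7, were at 0 counts in that library, where 3 counts would be 0.129 CPM. The rest of the list, Lgals12, Thrsp, Slc2a4 and Adrb3, was at 0 there too. Of these, Lgals12, Slc2a4 and Adrb3 were read in the shallower wild-type skin 22, at 0.751, 0.375 and 1.13 CPM. Because 8.22% of genes read in the other skin libraries were also at 0 there, a 0 in this library does not show that a message was absent. Of 11 genes of triglyceride synthesis and droplet growth, 8 were highest there, among them Dgat2, which makes the last step of triglyceride synthesis (243 CPM against at most 51.7 elsewhere), Fitm2, a droplet-forming protein (172 against at most 49.4 CPM), and Acsl1, which activates fatty acids (135 against at most 41.3 CPM). Of 9 lipolysis genes 2 were highest there, Lmf1 and Pde3b, and of 14 adipogenic regulators 4 were, Rxra, Ebf1, Srebf1 and Gata3. The sebocyte list (6 genes of sebaceous gland cells) had 5 of its genes at 0 in both wild-type skin libraries, where it summed to at most 0.375 CPM.

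**Figure D2:**
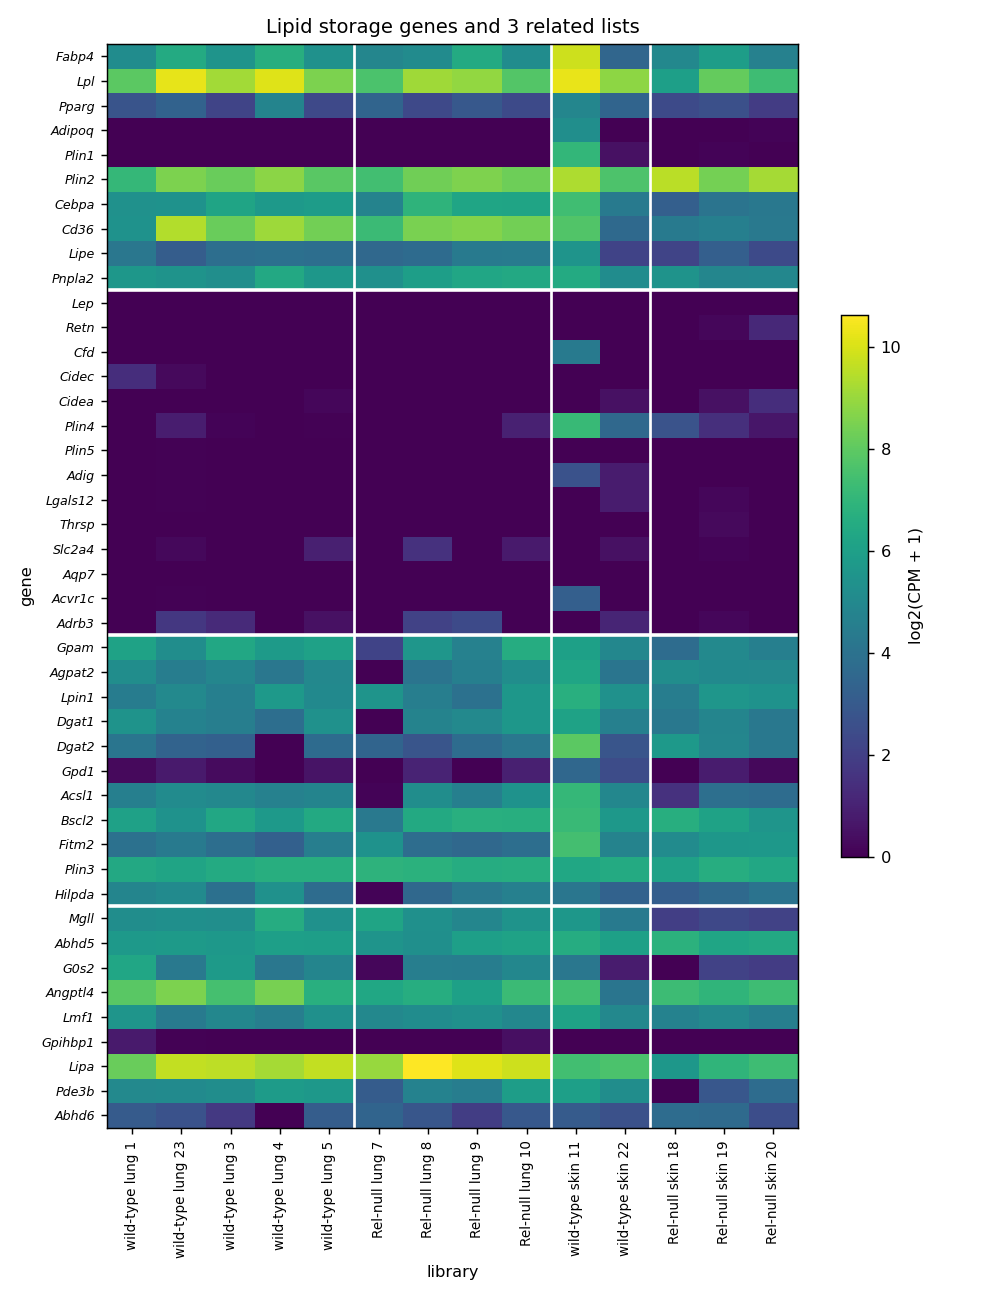
Level as log2(CPM + 1) (colour) of the 10 genes and of 3 related lists (rows, in blocks from top to bottom: the 10 genes, adipocyte hormones and droplet proteins, triglyceride synthesis and droplet growth, lipolysis and lipase control) in the 14 libraries (columns, white lines between groups). The second block is mostly dark outside wild-type skin 11, where Plin4, Cfd, Acvr1c and Adig stand out, and Lipa is brighter in every lung library than in any skin library.

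In lung, Lpl and Plin2 had the highest levels. Per kilobase of coding-transcript exon, the wild-type lung means were 171 CPM for Lpl, 157 for Plin2, 106 for Cd36 and 68.5 for Fabp4. The middle of the order was Cebpa at 20.0 and Pnpla2 at 19.9 CPM per kilobase, which differed by less than their spread over libraries, Pparg (4.14) and Lipe (2.43) were lower, with overlapping ranges, and Adipoq and Plin1 were at 0. Lpl, Plin2 and Cd36 also overlapped. The wild-type skin mean was led by Fabp4 at 508 CPM per kilobase, but over the range 11.7 to 1003 of its libraries, and the group labelled Rel-null skin was led by Plin2, with 293 CPM per kilobase (179 to 388).

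The first comparison asked whether these genes differ with the loss of Rel in lung. None of the 8 tested genes was called. With edgeR's quasi-likelihood test and Benjamini-Hochberg adjustment over 16408 genes, 0 members passed the threshold of 0.05, where 0% of all genes did. At an unadjusted p under 0.05 there were 0 members and 1036 genes, and DESeq2 and limma-voom also called 0 members. Libraries of both genotypes overlapped for every one of the 10 genes, where 2.29% of all genes did not overlap.

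Lpl had the largest difference in lung. It stood at 246, 1218, 567, 1117 and 369 CPM in wild-type lung 1, 23, 3, 4 and 5 and at 196, 552, 485 and 221 CPM in Rel-null lung 7, 8, 9 and 10. The 2 highest values were wild-type and the lowest was Rel-null, with overlap between them, for a log2 fold change of -0.91 ± 0.53 (SE; adjusted p 0.838, edgeR). Cd36 stood at 41.5, 673, 294, 536 and 333 CPM in the wild-type libraries and at 151, 354, 400 and 328 CPM in the Rel-null libraries. Its wild-type values alone spanned the whole Rel-null range, and its log2 fold change was -0.23 ± 0.66. Fabp4 ranged from 34.8 to 99.6 CPM in wild-type and from 28.7 to 89.4 CPM in Rel-null lung (-0.37 ± 0.73).

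The coat and lipase genes had lung values close between genotypes. Plin2 averaged 296 ± 119 CPM in wild-type (SD, n = 5) and 294 ± 88.7 CPM in Rel-null lung (n = 4), with a log2 fold change of 0.01 ± 0.39. Pnpla2 averaged 52.2 ± 18.1 and 65.2 ± 19.6 CPM (0.31 ± 0.35), and Lipe 13.3 ± 3.56 and 16.0 ± 4.93 CPM (0.21 ± 0.65). Of the regulators, Cebpa averaged 52.6 ± 12.7 and 73.7 ± 38.8 CPM (0.48 ± 0.52), and Pparg 9.84 ± 9.62 and 6.18 ± 2.68 CPM (-0.67 ± 0.76). The adjusted p of these 5 genes, and of Fabp4 and Cd36, was 1. These standard errors do not show that the genotypes are alike. The median over the 8 tested genes was -0.11, beside -0.08 for all genes.

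Of the other lipid lists in lung, no gene was called (edgeR; 3 had an unadjusted p under 0.05, and DESeq2 and limma-voom called 0). The smallest p among lipolysis genes belonged to Angptl4, a secreted inhibitor of lipoprotein lipase, with a log2 fold change of -1.33 ± 0.52 (adjusted p 0.781, edgeR). The list medians were 0.90 over 4 tested hormone and droplet genes, 0.00 over 11 triglyceride synthesis genes, -0.11 over 8 lipolysis genes and -0.55 over 14 regulators. In Rel-null lung 7 the synthesis genes Agpat2 and Dgat1 were at 0 counts and Acsl1 was at 0.0651 CPM, while the 8 tested genes of the main set were all read there.

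Lung levels stood beside a large macrophage signal. The list of macrophage and leukocyte genes (12 genes, the highest being Lyz2, Mpeg1 and Laptm5) had a count for all 12 genes in each lung library and summed to 4694 to 19253 CPM in wild-type and 7884 to 24375 CPM in Rel-null lung, against 56.3 to 172 CPM in skin. Cd36 had its lowest lung values, 41.5 and 151 CPM, in wild-type lung 1 and Rel-null lung 7, the libraries in which this sum was also lowest. Plin2 (132 and 169 CPM) and Cebpa (41.0 and 25.9 CPM) also had their lowest lung values there. The other tested members did not. Fabp4 and Lpl were lowest in Rel-null lung 7, but wild-type lung 1 was not next. Lipe was lowest in wild-type lung 23, and Pparg and Pnpla2 in wild-type lung 3. Pparg was at 9.83 CPM in Rel-null lung 7 and at 3.49 CPM in wild-type lung 3. Among the lung libraries other than wild-type lung 1 and Rel-null lung 7, Cd36 did not rank as the sum did. It was highest in wild-type lung 23 (673 CPM, sum 13472 CPM) and at 354 CPM in Rel-null lung 8, where the sum was highest (24375 CPM). The alveolar macrophage list held 7 genes, the highest being Mrc1, Chil3 and Marco. It summed to 224 to 1558 CPM in lung and 6.02 to 7.84 CPM in skin. Ear1 was at 0 in every skin library, but also in wild-type lung 1 and 3 and in every Rel-null lung library. Siglecf overlapped between tissues, at 6.07 CPM in wild-type skin 11 and 6.38 CPM in Rel-null skin 18. It was at 2.28 to 13.5 CPM in lung. In such mixed cultures fewer cells of a type and less RNA per cell cannot be told apart, and the part of macrophages in the Cd36 level was not tested. The lung lipofibroblast list held 5 genes, the highest being Fgf10, Limch1 and Npnt. Its sums were 167 to 456 CPM in wild-type and 68.1 to 233 CPM in Rel-null lung. They were 116 to 161 CPM in wild-type skin and 68.2 to 127 CPM in the group labelled Rel-null skin. Both skin ranges overlapped that of Rel-null lung. Fgf10 was highest in wild-type skin 11 (145 CPM), so this sum is not a signal of lung alone.

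**Figure D3:**
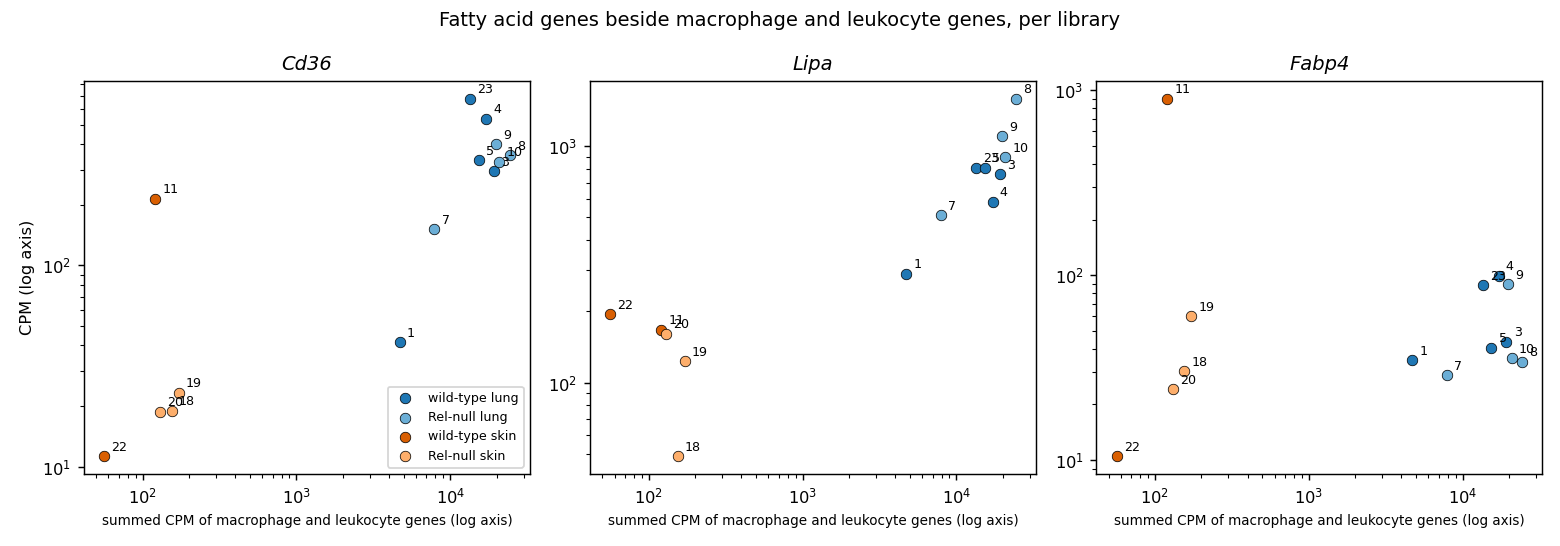
Level in CPM (vertical, log axis) of Cd36, Lipa and Fabp4 against the summed CPM of 12 macrophage and leukocyte genes (horizontal, log axis); each point is a library with its number, coloured by group. All 9 lung libraries lie far to the right of the 5 skin libraries, and wild-type skin 11 stands above the other skin libraries for Cd36 and Fabp4 but not for Lipa.

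The second comparison asked the same of skin, where the libraries labelled Rel-null were lower for 7 of the 8 tested genes. None passed the adjusted threshold, and most of these differences turned on wild-type skin 11. edgeR called 0 members, where 0% of all genes were called. At an unadjusted p under 0.05 there were 6 members and 1024 genes. DESeq2 called Fabp4 (adjusted p 0.0282) and Cebpa (0.0255), and limma-voom called 0 members. The median log2 fold change of the 8 genes was -2.30, beside 0.01 for all genes. It was 0.51 without wild-type skin 11, with 3 of the 8 genes lower.

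Cebpa stood at 165 and 19.1 CPM in wild-type skin 11 and 22 and at 8.33, 15.9 and 18.3 CPM in the libraries labelled Rel-null skin 18, 19 and 20. The groups did not overlap, but wild-type skin 22 lay 1 CPM or less above the highest of the others, and the log2 fold change was -2.75 ± 0.72 (adjusted p 0.399, edgeR). It was -0.23 without wild-type skin 11. Fabp4 stood at 899 and 10.5 CPM in wild-type skin and at 30.4, 59.8 and 24.3 CPM in the group labelled Rel-null. Wild-type skin held both the highest and the lowest value, and the fold change of -3.62 ± 1.02 (adjusted p 0.458) turned to 2.06 without wild-type skin 11.

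Lpl and Pparg, like Cebpa, kept their direction with either wild-type library left out. Lpl stood at 1249 and 451 CPM in wild-type skin and at 63.0, 279 and 161 CPM in the group labelled Rel-null, so every wild-type value was above the others. Its log2 fold change was -2.34 ± 0.71 (adjusted p 0.521, edgeR), and -1.22 without wild-type skin 11. Pparg stood at 28.7 and 9.76 CPM against 4.29, 5.03 and 2.66 CPM, again without overlap, with -2.27 ± 1.02 (adjusted p 0.784) and -1.09 without that library. Lpl, Pparg and Cebpa were the 3 of 8 tested genes whose groups did not overlap, all lower in the group labelled Rel-null, where 11.5% of all genes were lower and 25.1% differed in either direction. Plin1 also did not overlap, but wild-type skin 22 and the library labelled Rel-null skin 19 each had 1 count of it.

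For Cd36, Lipe and Pnpla2 the direction rested on wild-type skin 11. Cd36 stood at 214 and 11.3 CPM in wild-type skin and at 19.0, 23.2 and 18.7 CPM in the group labelled Rel-null, with a log2 fold change of -2.53 ± 0.91 that turned to 1.05 without wild-type skin 11. Lipe stood at 43.7 and 3.38 CPM against 3.59, 8.28 and 4.30 CPM (-2.17 ± 0.89, and 0.88 without that library). Pnpla2 stood at 89.9 and 34.9 CPM against 42.9, 28.5 and 29.0 CPM (-0.90 ± 0.47, and 0.13 without it). In all 3 genes wild-type skin 22 lay among or below the libraries labelled Rel-null.

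Plin2 was the exception among the 8. It stood at 633 and 204 CPM in wild-type skin and at 733, 338 and 589 CPM in the group labelled Rel-null, overlapping, with a log2 fold change of 0.39 ± 0.53 (adjusted p 0.958, edgeR). It was 1.63 without wild-type skin 11 and -0.25 without wild-type skin 22. Leaving out wild-type skin 22 instead made edgeR call Fabp4, Cebpa, Cd36, Lipe and Plin1, 5 of the 10 genes, and 421 genes in all, on a group of 1 library whose spread is assumed to equal that of the others. The median over all genes was then 0.40.

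**Figure D4:**
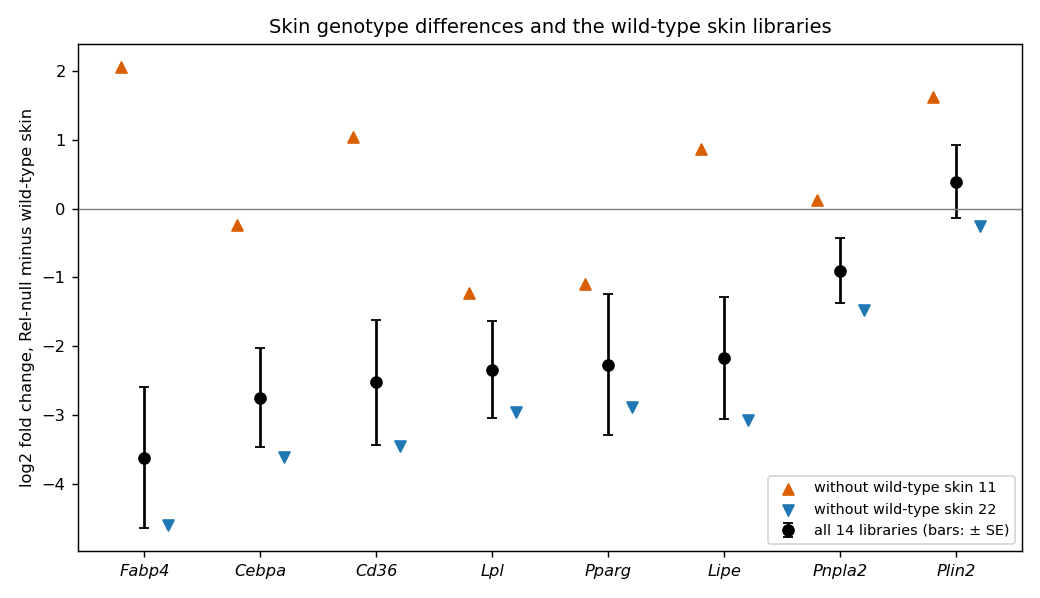
Log2 fold change of the libraries labelled Rel-null against wild type in skin (vertical axis) for the 8 tested genes (horizontal axis); black points with bars are all libraries ± SE, upward triangles are without wild-type skin 11 and downward triangles without wild-type skin 22. Without wild-type skin 11 the Fabp4, Cd36, Lipe and Pnpla2 values lie above 0, and Lpl, Pparg and Cebpa stay below it in each setting.

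Of the other lipid lists in skin, the genes of triglyceride synthesis and droplet growth were lower in the group labelled Rel-null for 11 of 11, with a median of -1.08 and 0 called by edgeR, DESeq2 or limma-voom (1 had an unadjusted p under 0.05 in edgeR). With wild-type skin 11 left out, 3 of the 11 were lower and the median was 0.080. Acsl1 had a log2 fold change of -3.16 ± 1.24 (adjusted p 0.745, edgeR), from 135 and 29.3 CPM to 1.85, 13.9 and 12.6 CPM. The 4 tested hormone and droplet genes were all lower, with Plin4 at -4.89 ± 2.06. The 8 tested lipolysis genes split into 3 higher and 5 lower, and the 14 regulators into 7 and 7. Mgll, the lipase of the last step of lipolysis, was nearest to the threshold: 47.7 and 19.5 CPM in wild-type skin against 2.96, 4.01 and 3.29 CPM, with -3.30 ± 0.54 (adjusted p 0.0513). It was -2.31 without wild-type skin 11 (adjusted p 0.282) and -3.86 without wild-type skin 22 (adjusted p 0.00149). It was also called without Rel-null lung 7 (adjusted p 0.0215), and not in the other 12 fits that left out 1 library.

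The summed level of keratinocyte markers differed in this contrast. The list of 10, the highest being Krt14, Krt17 and Cdh1, summed to 28.2 and 78.0 CPM in wild-type skin and to 1201 to 2834 CPM in the group labelled Rel-null, where all 10 had a count. Krt15 was at 0 in both wild-type skin libraries. Trp63 was at 0 and 6.01 CPM in wild-type skin 11 and 22 and at 0.469 to 3.70 CPM in the group labelled Rel-null. Of the 10 genes, 9 had higher fitted values in that group, 1 a lower one, and edgeR called 0 (smallest adjusted p 0.0513). The part of keratinocytes in the lipid gene differences was not tested. The macrophage and leukocyte list summed to 56.3 and 120 CPM in wild-type skin and 130 to 172 CPM in the group labelled Rel-null. The endothelial list (10 genes, among them Cdh5 and Kdr) summed to 9.76 to 15.4 CPM and 15.8 to 40.2 CPM, with Emcn, Cldn5 and Erg at 0 in all 5 skin libraries.

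The difference between the skin and lung genotype effects was largest for Fabp4, at -3.25 ± 1.22 on the log2 scale, and Cebpa, at -3.23 ± 0.88 (adjusted p 0.678, edgeR). edgeR called 0 members, where 0% of all genes were called, with 3 members and 766 genes at an unadjusted p under 0.05. DESeq2 and limma-voom called 0 members. The Fabp4 and Cebpa values rested on wild-type skin 11: without it Fabp4 was at 2.43 and Cebpa at -0.72, and without wild-type skin 22 both were called (adjusted p 0.00555 and 0.00565). A different response in skin and lung is therefore not shown for these genes.

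The tissue comparison within wild type asked which of these genes differ between skin and lung cultures. edgeR called 0 of the 8 members, where 2.97% of all genes were called. An unadjusted p under 0.05 was found for 1 member, Fabp4, and for 2167 of all 16408 genes. DESeq2, which called more genes than edgeR in this comparison, called Fabp4, and limma-voom called 0 members. Fabp4 was 2.84 ± 0.85 higher in skin on the log2 scale (adjusted p 0.0973), from 61.4 ± 30.1 CPM in lung (SD, n = 5) to 455 ± 628 CPM in skin (n = 2). Wild-type skin 22 lay below every lung library, and without wild-type skin 11 the value was -2.83. Cd36 was at 376 ± 242 CPM in lung and 113 ± 144 CPM in skin (-1.76 ± 0.92, adjusted p 0.448). Without wild-type skin 11 it was -5.32 and was called (adjusted p 0.0382), with 1 wild-type skin library left. No tested gene of the 8 had groups that did not overlap, where 19.0% of all genes did.

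Among the related lists in wild type, 4 genes were called between tissues. Plin4 was higher in skin by 8.70 ± 1.93 on the log2 scale (adjusted p 0.0206, edgeR) and Fitm2 by 2.54 ± 0.61 (0.0325). They were 5.65 (adjusted p 0.520) and 0.40 (adjusted p 1) without wild-type skin 11. Ebf1, a regulator of the adipocyte lineage, was higher in skin by 2.69 ± 0.41 (0.00161) and Cebpd, an early C/EBP factor of adipogenesis, was lower by -2.07 ± 0.51 (0.0377). Ebf1 stood at 119 and 159 CPM in wild-type skin and at 8.39 to 31.8 CPM in wild-type lung, and kept its call without either skin library (2.31 to 2.97). Leaving out 1 library at a time, Cebpd lost its call in 7 of 14 fits (highest adjusted p 0.164, without wild-type skin 22), Fitm2 in 5 and Plin4 in 3, and none of the 3 changed direction.

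The same comparison between libraries labelled Rel-null gave the calls among the 10 genes. Cd36 and Cebpa were lower in skin than in lung, 2 of 8 tested, where 5.05% of all genes were called and 3.23% were called lower. DESeq2 also called 2 members and limma-voom 4. Both called more genes in all than edgeR did, and limma-voom the most. Their counts of members therefore cannot be set against the 5.05% of edgeR. Cd36 stood at 151, 354, 400 and 328 CPM in Rel-null lung and at 19.0, 23.2 and 18.7 CPM in the group labelled Rel-null skin. The lowest lung value was above the highest skin value, with a log2 fold change of -4.06 ± 0.90 (adjusted p 0.0130, edgeR).

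Cebpa stood at 25.9, 121, 74.2 and 73.7 CPM in Rel-null lung and at 8.33, 15.9 and 18.3 CPM in the group labelled Rel-null skin, also without overlap, with -2.53 ± 0.65 (adjusted p 0.0340, edgeR). Lipe was the other gene whose groups did not overlap (11.2, 12.3, 19.8 and 20.6 CPM against 3.59, 8.28 and 4.30 CPM), with -1.69 ± 0.79 (adjusted p 0.258). Lower values without overlap were found for 7.58% of all genes. Lpl (-1.25 ± 0.61, adjusted p 0.286), Pnpla2 (-1.09 ± 0.41, 0.156), Pparg (-0.71) and Fabp4 (-0.41) had lower fitted values in skin, and Plin2 had a higher one (0.78 ± 0.44, 0.365). The median of the 8 was -1.17, beside -0.01 for all genes.

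These calls rested on few libraries. Without the libraries labelled Rel-null skin 19 and 20, in which Rel was at the wild-type level, neither Cd36 nor Cebpa kept its call. That fit leaves only Rel-null skin 18 in its group. It cannot tell a part of the Rel level from the loss of libraries. Leaving out 1 library at a time, Cebpa lost its call in 7 of 14 fits and Cd36 in 3, the fits without Rel-null skin 18, 19 or 20; Cebpa also lost it without wild-type lung 23 or Rel-null lung 8, 9 or 10. The direction of both was the same in all of them. The macrophage sums named above, higher in lung, and the keratinocyte sums, 6.77 to 34.5 CPM in Rel-null lung against 1201 to 2834 CPM in the group labelled Rel-null skin, also differ with tissue, and their part in these calls was not tested.

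Among the related lists, 3 genes were called between tissues within Rel-null. Mgll was lower in skin by -3.84 ± 0.51 on the log2 scale (adjusted p 2.92e-04, edgeR) and Lipa, the lysosomal acid lipase, by -3.35 ± 0.50 (7.71e-04). Lipa stood at 510 to 1583 CPM in Rel-null lung and at 48.8 to 161 CPM in the group labelled Rel-null skin, and within wild type the fitted difference was -2.03 ± 0.54 (adjusted p 0.0579). Ebf1 was higher in skin by 2.58 ± 0.41 (0.00122). All 3 kept their calls in each fit that left out 1 library. edgeR called 0 of the 11 triglyceride synthesis genes, whose median was -0.38, and 0 of the 4 tested hormone and droplet genes, with 0 of either at an unadjusted p under 0.05; DESeq2 called 0 of either and limma-voom 1 of each.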

How the data were processed

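The deposited values were raw read counts per Ensembl gene made by the authors, 1 column for each of the 14 libraries. Build GRCm38 and the tools STAR 2.4.2a, Trimmomatic 0.33 and FastQC 0.11.2 are listed, with no role or order, in the submitters' processing notes; the library kit is directional, per the labels. How strand was treated, which software counted and with which annotation is not given in the sources used here. Symbols and GRCm38 coordinates came from GENCODE M21, which held 48435 of the identifiers and not 360. Pparg, Cebpa and Lipe overlap a gene on the opposite strand, so their counts are uncertain.

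The test was the quasi-likelihood F test of edgeR 4.0.16 (R 4.3.3), after TMM scaling and the filterByExpr filter at a count of 10 and a total of 15. All 14 libraries entered 1 model with a mean for each of the 4 groups and a shared spread, and p-values were adjusted by Benjamini-Hochberg over 16408 genes at 0.05. The common dispersion was 0.948. CPM use raw library totals, and SD are over libraries. Levels per kilobase use the union of coding-transcript exons of the basic GENCODE set. The floor was 3 counts; floors and intervals hold for counting error alone, because the labels name no molecular identifiers and reads are then not independent molecules. Alternatives were RLE or upper-quartile factors, no low-count filter, DESeq2 1.42.0, limma-voom (3.58.1) with quality weights, a filter of 1 CPM in 4 libraries, only the groups compared, each library left out, and fits without the 4 libraries with most genes at 0, without the 2 with Xist reads, or without Rel-null skin 19 and 20. The code was tested on simulated data, for genotype in lung and for skin against lung in Rel-null. The simulated dispersion was 0.2, below that of these data, so the test does not measure power or false calls here. The 10 genes, the lists and these alternatives were chosen with earlier results of these data known. Besides the 10 genes, genes of a lipid list were named if called. Where none or over 5 were called, up to 3 of smallest p with a group mean of at least 5 CPM could be named. Not every list has a named gene in each comparison. The 2 adipogenic regulators with an unadjusted p under 0.05 (edgeR) for genotype in lung are not named. Genes singled out in wild-type skin 11, or for a 0 in Rel-null lung 7, were chosen after their values were seen.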

Additional observations from a re-analysis of the deposited data

Results flagged for a closer look

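In 3 of the 16 sets of 1 gene in 1 lung group that were checked, 1 library lay far from the rest of its group (Dixon's test, where chance marks about 1 set in 20). Fabp4 was at 89.4 CPM in Rel-null lung 9, while the other Rel-null lung libraries were at 28.7 to 35.5 CPM. Pparg was at 26.6 CPM in wild-type lung 4, against 3.49 to 9.26 CPM in the other wild-type lung libraries. Pnpla2 was at 83.5 CPM in the same library, against 37.7 to 49.1 CPM in the others. Wild-type lung 4 is 1 of the 4 libraries with the most genes at 0.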

How the results depend on the processing

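No paired analysis was possible because the labels do not say which libraries, if any, came from the same animal. Of 952 values of the tested genes under alternatives, 869 kept their direction and side of the threshold, 12 lost a call, 25 gained one and 46 changed direction; the cause was not tested. Counts of calls moved most. For genotype in lung (0 genes), no low-count filter gave 5, DESeq2 51, limma-voom 6, only the groups compared 2, the fit without the 4 libraries with most genes at 0 gave 6, that without Rel-null skin 19 and 20 gave 2, and leaving out 1 library 0 to 2. For genotype in skin (0 genes), upper-quartile factors gave 3, no filter 58, DESeq2 153, limma-voom 300, only the groups compared 2, without the 4 libraries 87, without the 2 Xist libraries 439, without Rel-null skin 19 and 20 55, and leaving out 1 library 0 to 421. Members called there (0) became 2 with no filter, 2 with DESeq2, 5 without the Xist libraries and 0 to 5 leaving out 1 library. For the difference of both effects (0 genes), no filter gave 31, DESeq2 100, limma-voom 174, without the 4 libraries 31, without the Xist libraries 365, without Rel-null skin 19 and 20 31, and leaving out 1 library 0 to 370; members called became 3 without the Xist libraries and 0 to 2 leaving out 1 library. For skin against lung in wild type (487 genes), no filter gave 782, DESeq2 1233, without the 4 libraries 858, without the Xist libraries 1044, and leaving out 1 library 258 to 1050. Members called there (0) became 3 with no filter, 1 with DESeq2, 1 without the 4 libraries, 3 without the Xist libraries, 1 without Rel-null skin 19 and 20, and 0 to 3 leaving out 1 library. Within Rel-null (829 genes), DESeq2 gave 1770, limma-voom 4501, without the 4 libraries 2171, without Rel-null skin 19 and 20 409, and leaving out 1 library 410 to 1323; members called (2) became 4 with limma-voom, 0 without Rel-null skin 19 and 20, and 0 to 2 leaving out 1 library.

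Log2 fold changes that changed direction were as follows. With limma-voom, genotype in lung gave Pparg 0.049 and Cd36 0.18, and the difference of both effects gave Plin2 -0.20. Without the Xist libraries, Plin2 was -0.15 in lung, -0.22 in skin and -0.071 for the difference. Without the 4 libraries, lung gave Fabp4 0.052 and Cd36 0.16; skin gave Fabp4 2.23, Cebpa 0.064, Cd36 1.13 and Lipe 1.13; the difference gave Fabp4 2.18, Cd36 0.96 and Lipe 0.74; and skin against lung in wild type gave Fabp4 -2.61, Lpl -0.70, Plin2 -0.66, Cebpa -1.82, Lipe -2.32 and Pnpla2 -0.70. Leaving out 1 library, the ranges that crossed 0 in lung were -0.14 to 0.22 for Plin2, -0.51 to 0.070 for Cd36 and -0.94 to 0.088 for Pparg (above 0 without wild-type lung 4). In the same fits, most bounds of which were those without wild-type skin 11 or 22, the skin ranges were -4.61 to 2.06 for Fabp4, -3.46 to 1.05 for Cd36, -3.07 to 0.88 for Lipe, -1.48 to 0.13 for Pnpla2 and -0.25 to 1.63 for Plin2. Those of the difference were -4.24 to 2.43 for Fabp4, -3.22 to 1.29 for Cd36, -3.28 to 0.65 for Lipe and -0.26 to 1.62 for Plin2. Those of skin against lung in wild type were -2.83 to 3.82 for Fabp4, -0.91 to 0.79 for Lpl, -0.28 to 1.61 for Pparg (the upper bound without wild-type lung 4), -0.82 to 1.04 for Plin2, -1.78 to 1.55 for Cebpa, -2.32 to 1.60 for Lipe and -0.89 to 0.70 for Pnpla2. Within Rel-null, Fabp4 ranged from -0.91 to 0.12. With 2663437 counts, wild-type skin 22 has its floor of 3 counts at 1.13 CPM, and 0 counts there have an exact 95% upper limit of 1.39 CPM.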

Other observations

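Across the 14 libraries, the genes whose log2 CPM was most like that of Fabp4, among 10951 tested genes with a mean of at least 5 CPM, were Hp (haptoglobin, a secreted haemoglobin-binding protein; Pearson r 0.845), Pex11a (a peroxisomal membrane protein; 0.820), Chpt1 (phosphatidylcholine synthesis; 0.816), Tmem38b (an intracellular cation channel; 0.792) and Snx18 (a sorting nexin; 0.781). Hp was at 3249 CPM in wild-type skin 11 and at 13.1 to 334 CPM in the other 13 libraries. Without wild-type skin 11, r with Fabp4 was 0.641 for Hp, 0.485 for Pex11a, 0.532 for Chpt1, 0.726 for Tmem38b and 0.537 for Snx18. For Adipoq the nearest were Akap1 (0.878), Slc25a44 (0.878), Klhl18 (0.847), Kctd3 (0.830) and Smarcb1 (0.823), where 1 library had more than 1 count of Adipoq. Without that library r was 0.675 for Akap1, 0.417 for Slc25a44, 0.317 for Klhl18, 0.463 for Kctd3 and 0.315 for Smarcb1, with 1 Adipoq count left in all. A prior count of 1 was added before the log, so a library at 0 has a value set by its depth alone. The r without wild-type skin 11 therefore cannot describe likeness to Adipoq. The points share libraries, depth and the 4 groups, so these values are descriptions.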
